A study of Mus musculus with 8 samples.

Results

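The Ms4a genes encode a family of small proteins that cross the cell membrane several times and pair with other receptors at the surface. Its best known members are CD20 on B cells, encoded by Ms4a1, and the beta chain of the IgE receptor on mast cells, encoded by Ms4a2. Several others are made by monocytes and macrophages, where they have been reported to bind pattern recognition receptors and to tune their signals, and all lie side by side in a single gene cluster. Described here are the members Ms4a6b, Ms4a6c, Ms4a6d, Ms4a4b, Ms4a4c, Ms4a7 and Ms4a8a. Every probe set annotated to them was taken, which gave 14 probe sets of 7 genes among the 45037 probe sets on the array that are no controls. The family was chosen by its hormone values, since Ms4a6b and Ms4a6c were much higher with corticosterone on these same arrays, so the hormone differences are a description with no test.

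RNA was measured in peritoneal macrophages of male C57BL6/J mice. The knockout mice were MR fl / fl with LysM cre, in which Cre expressed from the lysozyme M locus, active in myeloid cells, removes the floxed mineralocorticoid receptor gene Nr3c2, and the control mice were MR fl / fl without Cre. The cells had been drawn into the peritoneum by 3% thioglycolate, taken 4 days later and kept by adherence in medium with 10% FBS, so all 4 groups carry the floxed gene and come from inflamed cavities. The groups were knockout cells with 1 µM corticosterone for 24 h, control cells with corticosterone, untreated knockout cells and untreated control cells, with 2 arrays each. Corticosterone, the main glucocorticoid of mice, binds both the glucocorticoid receptor and the mineralocorticoid receptor. Each array held RNA that was pooled over triplicate experiments, and the labels call the 2 arrays of a group biological replicates without saying which mice went into each pool. The p-values below reflect the spread between such pools. The sources used here do not give the ages of the mice.

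Control untreated replicate 2 stood apart from the other arrays. Its median correlation with them was 0.919, against 0.994 to 0.995 for each of the other 7 arrays, and its 3′ minus 5′ difference for Actb, a measure of RNA integrity, was 2.18 log2 units against 0.41 to 0.62. Markers of mesothelial cells and fibroblasts averaged 9.02 on it and 7.23 to 7.67 on the other 7 arrays. Among the Ms4a probe sets it was the lowest of the 8 arrays for 10 and the highest for 2. The main fit left it out because earlier work on these data had found it far from the other arrays. That choice was thus made with earlier results known. Untreated control cells are then represented by a single array. Nr3c2, the deleted gene, read 5.11 and 5.47 in knockout cells with corticosterone against 6.39 and 6.13 in control cells with it, and 5.54 and 5.82 in untreated knockout cells against 6.39 and 8.46 in untreated control cells. Macrophage markers averaged 12.08 to 12.36 on the 7 arrays and 11.56 on the array that stood apart.

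The promoters of the pair with the largest hormone differences are shown first, since they share stretches of identical sequence. RefSeq promoters of assembly GRCm38.p6, from 250 bases before to 50 bases after the start site, were held for 6 of the 7 members, Ms4a6d being the exception. Ms4a6b lies at chr19:11518309-11518608 and Ms4a6c at chr19:11469118-11469417, both on the plus strand. Capitals mark stretches of at least 15 bases that are identical in both, chosen for display after the hormone values were known.
Ms4a6b: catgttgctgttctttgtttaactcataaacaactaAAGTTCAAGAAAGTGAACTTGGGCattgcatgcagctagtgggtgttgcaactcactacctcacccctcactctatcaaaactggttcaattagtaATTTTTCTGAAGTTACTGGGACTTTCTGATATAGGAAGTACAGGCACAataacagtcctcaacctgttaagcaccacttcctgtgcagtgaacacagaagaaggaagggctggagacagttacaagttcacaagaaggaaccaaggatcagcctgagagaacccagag
Ms4a6c: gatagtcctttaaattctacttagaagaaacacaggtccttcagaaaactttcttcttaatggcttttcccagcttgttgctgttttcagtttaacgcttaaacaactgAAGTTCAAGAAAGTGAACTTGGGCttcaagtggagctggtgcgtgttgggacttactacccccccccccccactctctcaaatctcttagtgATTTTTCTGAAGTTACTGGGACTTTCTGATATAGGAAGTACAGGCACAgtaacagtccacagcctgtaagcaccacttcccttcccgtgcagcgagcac

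The shared stretches are 24 and 48 bases long. In Ms4a6b the longer one runs from position -118 to -71 relative to the start site, and in Ms4a6c from -49 to -2. Each of the 2 stretches was found in 2 of the 32851 RefSeq promoters searched, those of Ms4a6b and Ms4a6c. Ms4a4b and Ms4a4c were the only other pair of members with identical stretches of at least 15 bases, the longest being 20. Global alignment gave 79.0% identical bases for Ms4a4b and Ms4a4c, 65.7% for Ms4a6b and Ms4a6c, and 55.7% to 61.7% for the remaining pairs of promoters.

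Motifs of receptors and factors active in macrophages were searched on both strands. The complete hormone receptor element, AGAACA followed by any 3 bases and TGTTCT, to which both corticosterone receptors can bind, was in none of the 7 member promoters and in 0.00913% of all promoters. AGAACA alone was in 5 of the 7 member promoters and in 19% of all promoters. Ms4a6b held one on the minus strand at position -242, and Ms4a6c held none. TGANTCA, a loose form of the AP-1 motif that takes any base at N, was in 3 of the 7 member promoters and in 7.81% of all promoters. The matches were TGAATCA in Ms4a4b, TGATTCA in Ms4a7 and TGAGTCA in Ms4a8a. The PU.1 motif GAGGAAGT, in 3.2% of all promoters, and the interferon motif, TTTC followed by any 2 bases and TTTC, in 3.44%, were in none of the member promoters, and the TATA box TATAAA, in 13.6%, was in that of Ms4a4b. A match is a run of letters in this window and shows no binding.

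Values are log2 expression, and a difference of 1 is a 2-fold change. Of the 14 probe sets, 6 read above the array median of 5.55 to 5.58 on all 8 arrays and 2 read below it on all 8. Levels of different probe sets are not comparable with each other.

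Ms4a6b, made by macrophages and T cells, had the largest hormone difference of the family. Its brighter probe set, 1418826_at, read 11.99 and 12.02 in knockout cells with corticosterone and 8.88 and 8.82 in untreated knockout cells. In control cells it read 11.95 and 11.91 with corticosterone, against 8.58 and 5.76 untreated, the last being the array that stands apart. The 4 hormone arrays lay close together and above every untreated array. The difference was 3.15 (SE 0.042), or 8.89-fold, in knockout cells and 3.35 (SE 0.052), or 10.2-fold, in control cells on 7 arrays. With all 8 arrays the difference in control cells was 4.76.

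The second Ms4a6b probe set, 1439956_at, had a still larger difference. It read 8.58 and 8.51 with corticosterone and 4.39 and 4.32 untreated in knockout cells, and 8.44 and 8.30 with corticosterone against 4.58 and 5.91 untreated in control cells. The differences were 4.19 (SE 0.11) in knockout cells and 3.79 (SE 0.135) in control cells. On this probe set the array that stands apart was the highest of the untreated arrays, while on 1418826_at it was the lowest, by 2.82 log2 units under its replicate. With it, the control difference was 3.12.

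Ms4a6c, a gene of monocytes and macrophages, had the next largest difference. Probe set 1450234_at read 11.78 and 11.79 with corticosterone and 9.69 and 9.80 untreated in knockout cells. In control cells it read 11.67 and 11.66 with corticosterone, against 9.33 and 8.99 untreated. The groups with and without hormone did not overlap in either genotype. The difference was 2.04 (SE 0.044), or 4.12-fold, in knockout cells and 2.33 (SE 0.053), or 5.04-fold, in control cells. With 8 arrays the control difference was 2.50. Monocyte markers, 3 of 5 measured, averaged 8.31 and 8.17 with hormone against 7.38 and 7.35 without in knockout cells, and 7.73 and 7.56 with hormone against 7.64 and 7.77 without in control cells. In each genotype 1 of these 3 markers rose and 2 fell on 7 arrays, and 1 rose and none fell on 8 arrays. Their part in the Ms4a6c values was not tested.

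The other Ms4a6c probe set, 1457725_at, showed less. It read 8.13 and 8.22 with corticosterone and 7.76 and 7.76 untreated in knockout cells, and 7.85 and 8.02 with corticosterone against 6.87 and 4.09 untreated in control cells. The difference was 0.42 (SE 0.091) in knockout cells and 1.07 (SE 0.112) in control cells, or 2.46 in control cells with 8 arrays. The 2 probe sets of Ms4a6c thus gave the same direction and unequal sizes.

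Ms4a6d, reported in mouse macrophages to pair with the complement receptor encoded by Vsig4, had 2 probe sets far above the array median in every group. Probe set 1419598_at read 12.41 and 12.38 with corticosterone and 11.92 and 11.81 untreated in knockout cells, and 12.42 and 12.41 with corticosterone against 11.99 and 11.36 untreated in control cells. Probe set 1419599_s_at, whose suffix marks probes shared by related transcripts, read 12.77 to 12.86 on the 4 hormone arrays and 12.22 to 12.55 on the 4 untreated arrays. The differences of 1419598_at were 0.53 in knockout cells and 0.42 in control cells, and those of 1419599_s_at were 0.34 in knockout cells and 0.26 in control cells. The control differences were larger on 8 arrays, 0.74 for 1419598_at and 0.43 for 1419599_s_at. The remaining probe set, 1449539_at, read 2.26 to 2.58 on all 8 arrays, below every array median, and differed by 0.016 in knockout cells and -0.15 in control cells.

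Ms4a8a, which has been described on alternatively activated mouse macrophages exposed to glucocorticoid, was measured by 1 probe set, 1418797_at. It read 12.47 and 12.47 with corticosterone and 11.82 and 11.74 untreated in knockout cells, and 12.51 and 12.45 with corticosterone against 11.90 and 11.51 untreated in control cells. All hormone arrays were above all untreated arrays. The difference was 0.69 (SE 0.034) in knockout cells and 0.58 (SE 0.042) in control cells, or 0.78 in control cells with 8 arrays.

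Ms4a7, a marker of macrophages in several tissues, had a small hormone difference on 1 of its 2 probe sets. Probe set 1424754_at read 12.45 and 12.47 with corticosterone and 12.40 and 12.35 untreated in knockout cells, and 12.52 and 12.49 with corticosterone against 12.43 and 11.55 untreated in control cells. Its difference was 0.083 in knockout cells and 0.073 in control cells, and 0.51 in control cells with the array that stands apart. Probe set 1445365_at was dimmer, at 5.31 to 5.89 on the 7 arrays and 6.93 on that array. It differed by 0.34 in knockout cells and 0.30 in control cells, but by -0.42 in control cells on 8 arrays.

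Ms4a4b, known in mouse T cells as a partner of the costimulatory receptor encoded by Tnfrsf18, had a probe set with lower hormone values in both genotypes on 7 arrays. Probe set 1423467_at read 6.40 and 6.29 with corticosterone and 6.84 and 6.68 untreated in knockout cells, and 6.47 and 6.25 with corticosterone against 6.68 and 4.84 untreated in control cells. Its difference was -0.42 in knockout cells and -0.32 in control cells on 7 arrays, but 0.60 in control cells on 8 arrays. The second probe set, 1425325_at, read 2.93 to 3.44 and had differences of -0.24 in knockout cells and 0.14 in control cells. On 7 arrays T and NK cell markers moved the same way as 1423467_at, and 8 of the 11 measured lay on average under the array median. On 8 arrays their median difference in control cells was -0.79, of opposite sign to 1423467_at. The shares of all probe sets given next count calls in either direction. Over all probe sets 9.14% were called with hormone in knockout cells and 6.79% in control cells on 7 arrays, and 0.0577% in knockout cells and 0.0622% in control cells on 8 arrays. Of the 11 of 13 markers measured, 7 fell with hormone in knockout cells and 6 in control cells, and their mean level was 4.43 and 4.48 with hormone against 5.64 and 5.62 without in knockout cells, and 4.62 and 4.58 against 5.47 and 5.32 in control cells. With 8 arrays 1 of these markers fell in knockout cells and none in control cells. Their part in the Ms4a4b values was not tested, and fewer cells of a type cannot be told apart from less RNA per cell in these bulk samples.

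Ms4a4c, expressed by monocytes and inducible by interferon in mice, differed in opposite directions in the genotypes on 1 of its 2 probe sets. Probe set 1420671_x_at, whose suffix marks probes that also match other sequences, read 6.74 and 6.72 with corticosterone and 6.92 and 6.88 untreated in knockout cells. In control cells it read 6.93 and 6.74 with corticosterone, against 6.31 and 5.54 untreated. Its difference was -0.17 in knockout cells and 0.53 in control cells, or 0.91 in control cells with 8 arrays. Probe set 1450291_s_at read 5.55 to 6.22 on the 8 arrays and differed by 0.16 in knockout cells and 0.24 in control cells, or 0.41 in control cells with 8 arrays.

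**Figure D1:**
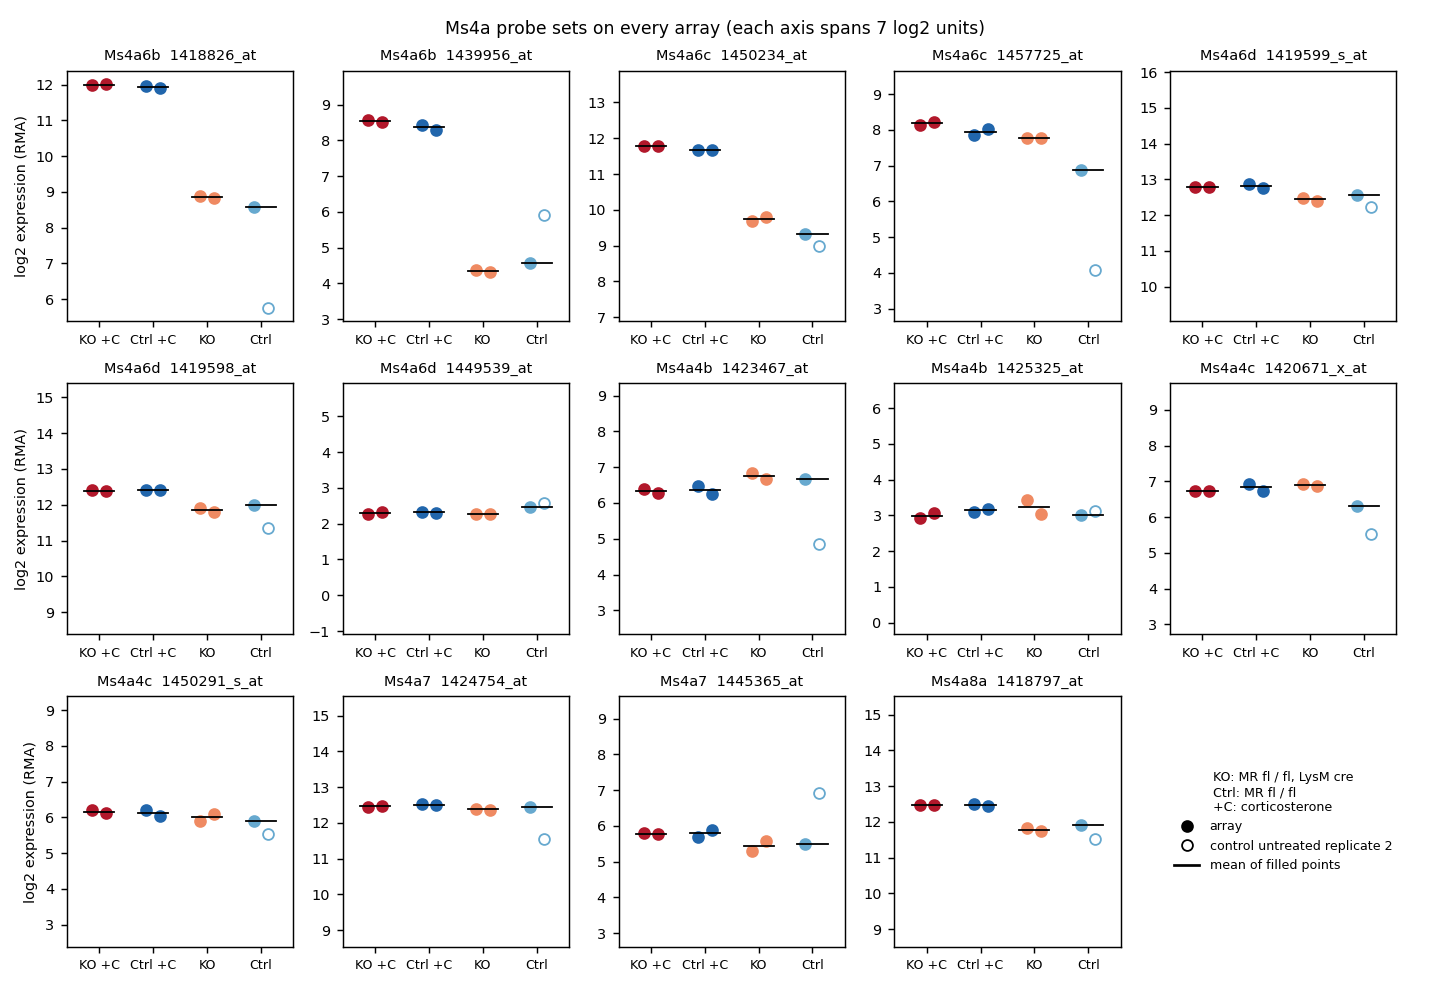
Log2 expression of each of the 14 Ms4a probe sets on every array, by group, with the array that stands apart as an open circle. Bars mark group means, except for untreated control cells, where the bar marks replicate 1 alone. Each vertical axis spans 7 log2 units. The Ms4a6b panels and that of Ms4a6c 1450234_at show hormone arrays far above untreated arrays, while in the other panels the 2 lie closer together apart from the open circle.

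Across the family the hormone difference in knockout cells was highest for Ms4a6b at 4.19 and lowest for Ms4a4b at -0.42. The hormone arrays lay above all untreated arrays without overlap for 10 of the 14 probe sets in each genotype, where 22.7% of all probe sets did so in knockout cells and 23.1% in control cells. Lower without overlap were 2 probe sets in knockout cells and 1 in control cells, against 24.3% of all probe sets in knockout cells and 18.9% in control cells. The median difference of the 14 probe sets was 0.34 in knockout cells and 0.36 in control cells, while the median over all probe sets was -0.0060 in knockout cells and 0.00039 in control cells. These counts describe a family chosen for its response. Macrophage markers also moved with the hormone: 4 of 8 rose and 1 fell in each genotype on 7 arrays, 1 rose on 8 arrays, and their mean level was 12.35 and 12.36 with hormone against 12.14 and 12.09 without in knockout cells. In control cells the mean was 12.36 and 12.36 with hormone against 12.08 and 11.56 without. The markers did not move together. In knockout cells Mertk moved most, reading 11.82 and 11.87 with hormone against 10.21 and 10.07 without. Csf1r read 13.59 and 13.55 against 13.55 and 13.59, and Itgam 8.50 and 8.49 against 9.05 and 8.98. The part of these markers in the member values was not tested.

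**Figure D2:**
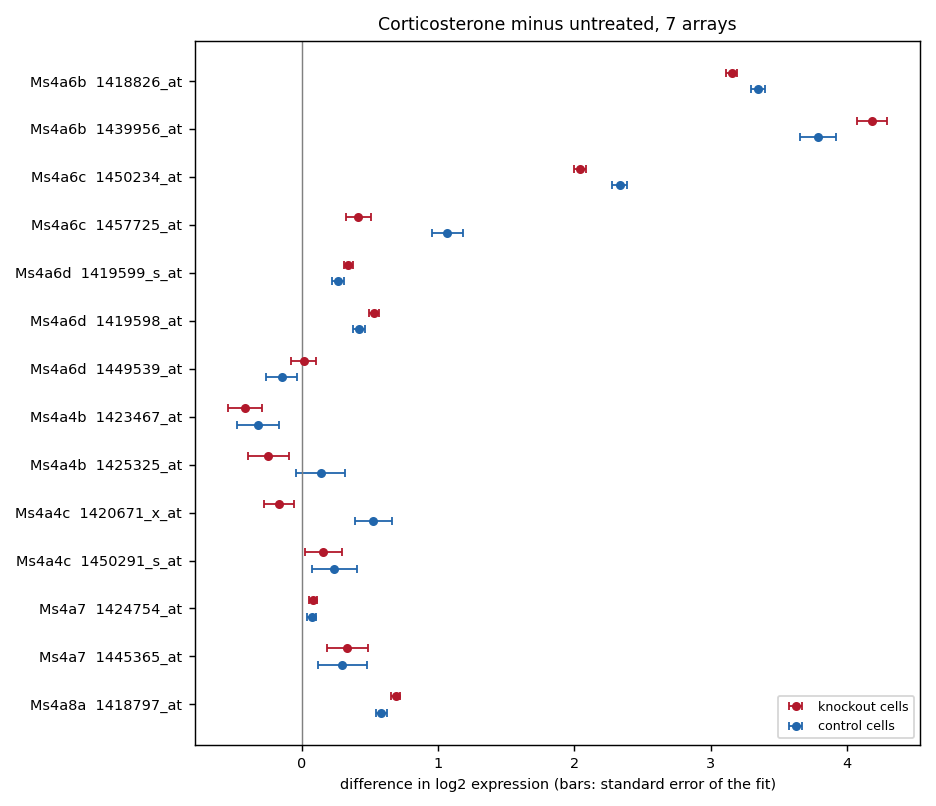
Difference in log2 expression between corticosterone and untreated cells for each Ms4a probe set on 7 arrays, in knockout cells and in control cells, with standard errors of the fit. Ms4a6b and the brighter Ms4a6c probe set lie between 2.04 and 4.19, and the other members between -0.42 and 0.69 apart from Ms4a6c 1457725_at at 1.07 in control cells.

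Whether the members differ with the mineralocorticoid receptor itself was also tested. The family was chosen by the hormone contrast, which uses the same arrays, so these comparisons are not independent of the choice. A low untreated control array raises both the hormone difference in control cells and the knockout difference without hormone. Without hormone, Ms4a6c was higher in knockout cells. Its probe set 1450234_at averaged 9.74 ± 0.073 (SD, n = 2) in knockout cells against 9.33 on the single control array fitted, a rise of 0.41 (SE 0.053, 95% confidence interval 0.29 to 0.53, limma adjusted p = 0.00650). Its probe set 1457725_at averaged 7.76 ± 0.001 (SD, n = 2) against 6.87, a rise of 0.89 (SE 0.112, 95% confidence interval 0.64 to 1.14, limma adjusted p = 0.00507). These 2 of the 14 member probe sets passed, where 0.977% of all probe sets did, and 7 had an unadjusted p under 0.05, as did 12.3% of all. The control array left out of the fit read 8.99 on 1450234_at and 4.09 on 1457725_at. It was the lowest of the 8 arrays on both, as it was for 10 of the 14 member probe sets. The median difference of the 14 probe sets was 0.015, and that of all probe sets was -0.0044.

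Ms4a6b 1418826_at was 0.27 higher in untreated knockout cells (SE 0.052) and missed the threshold with a limma adjusted p of 0.0502. Its other probe set had the opposite sign, -0.22 (adjusted p = 0.560). Ms4a4c 1420671_x_at was 0.59 higher (SE 0.137, adjusted p = 0.0992), while 1450291_s_at of the same gene differed by 0.12 (adjusted p = 0.849). For Ms4a6d, Ms4a7 and Ms4a8a the differences of the bright probe sets lay between -0.13 and -0.055, with adjusted p of 0.286 to 0.571. Ms4a4b 1423467_at differed by 0.078 (95% confidence interval -0.27 to 0.42, adjusted p = 0.902).

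These calls compare 2 knockout arrays with 1 control array, which was assumed to vary as the remaining groups do. With all 8 arrays none of the 14 probe sets passed by limma, none of the 45037 did (0%), and 4 members had an unadjusted p under 0.05, as did 4.69% of all probe sets. The Ms4a6c differences were then 0.58 and 2.28, each with an adjusted p of 0.516. Those of Ms4a6b were 1.68 on 1418826_at and -0.89 on 1439956_at, and that of Ms4a4c 1420671_x_at was 0.97. Ms4a4b 1423467_at differed by 1.00. The bright probe sets of Ms4a6d, Ms4a7 and Ms4a8a changed sign, to differences of 0.057 to 0.39, with adjusted p of 0.516 to 0.785. B cell markers averaged 7.66 and 7.52 in untreated knockout cells against 7.32 and 6.24 in untreated control cells, and monocyte markers, 3 of 5 measured, averaged 7.38 and 7.35 against 7.64 and 7.77. The monocyte markers did not move together. Chil3 read 6.39 and 6.12 in untreated knockout cells against 8.34 and 8.04 in untreated control cells. Ccr2 read 7.55 and 7.58 against 6.80 and 7.70, and Plac8 read 8.21 and 8.36 against 7.79 and 7.56. The part of these B cell and monocyte markers in the Ms4a6c values was not tested.

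With corticosterone none of the 14 probe sets passed, where 0.795% of all probe sets did, and 2 had an unadjusted p under 0.05, as did 8.03% of all. Those were the probe sets of Ms4a6c, higher in knockout cells by 0.12 (SE 0.044, 95% confidence interval 0.023 to 0.22, limma adjusted p = 0.466) and by 0.24 (SE 0.091, 95% confidence interval 0.037 to 0.45, adjusted p = 0.498). Ms4a6b 1418826_at averaged 12.00 ± 0.024 in knockout cells and 11.93 ± 0.027 in control cells (SD, n = 2 each), a difference of 0.074 with a 95% confidence interval of -0.021 to 0.17 and an adjusted p of 0.737. For Ms4a8a the interval of the difference was -0.086 to 0.068, and for Ms4a7 1424754_at it was -0.11 to 0.018. The median difference of the 14 was -0.014, and that of all probe sets was -0.0088. With 8 arrays none passed by limma (0% of all probe sets) and none had an unadjusted p under 0.05, where 1.18% of all did.

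Ordered by level, Ms4a6b 1418826_at and Ms4a6c 1450234_at ran the same way: knockout cells with hormone, control cells with hormone, untreated knockout cells, untreated control cells. Hormone above untreated was part of the choice of the family. The other Ms4a6b probe set, 1439956_at, had the opposite order without hormone, 4.39 and 4.32 in knockout cells against 4.58 and 5.91 in control cells. For both genes the first 2 groups were not called as different. The last 2 groups differed by 0.41 for Ms4a6c 1450234_at and by 0.27 for Ms4a6b 1418826_at on 7 arrays, with a single untreated control array. With 8 arrays neither was called.

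**Figure D3:**
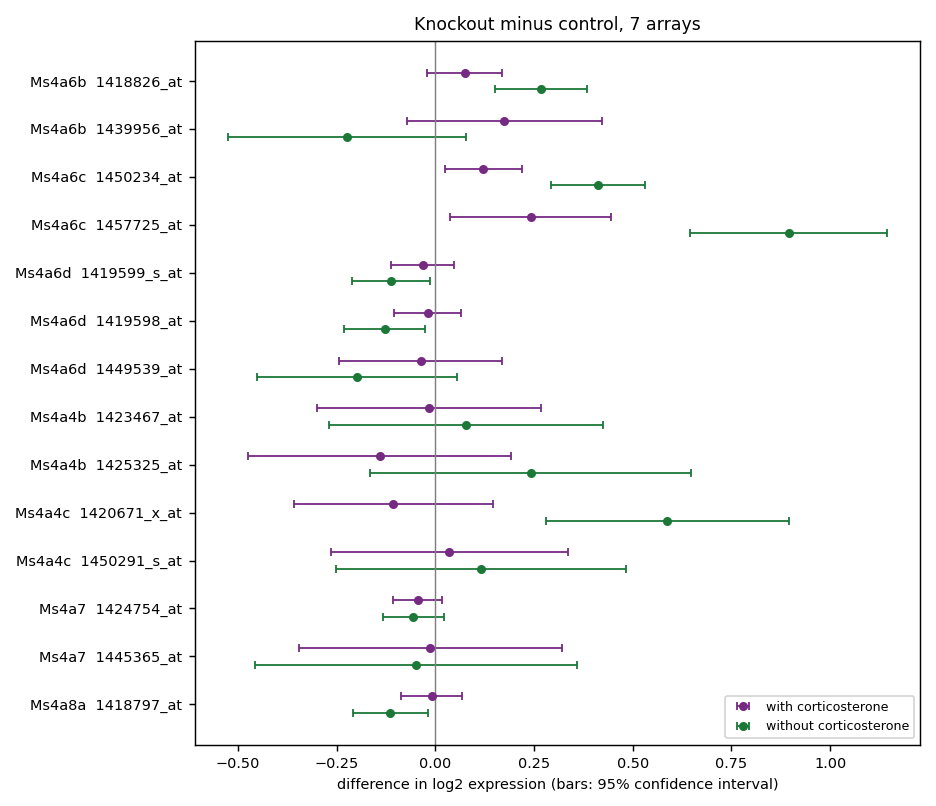
Difference in log2 expression between knockout and control cells for each Ms4a probe set on 7 arrays, with and without corticosterone, with 95% confidence intervals. Without hormone the Ms4a6c intervals of 0.29 to 0.53 and 0.64 to 1.14 lie above 0, as do those of Ms4a6b 1418826_at and Ms4a4c 1420671_x_at. The untreated intervals of Ms4a6d 1419598_at, Ms4a6d 1419599_s_at and Ms4a8a lie below 0. With hormone the points of most members lie near 0, and the Ms4a6c intervals lie above 0.

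The hormone difference itself was compared between the genotypes by the interaction term. None of the 14 probe sets passed, where 0.00888% of all probe sets did, and 5 had an unadjusted p under 0.05, as did 5.67% of all. For Ms4a6c the term, the hormone difference in knockout cells minus that in control cells, was -0.29 (SE 0.069, limma adjusted p = 0.837) on 1450234_at and -0.65 (SE 0.144, 95% confidence interval -0.98 to -0.33, adjusted p = 0.743) on 1457725_at. For Ms4a6b the term was -0.19 on one probe set and 0.40 on the other, with adjusted p of 0.869 on the first and 0.877 on the second. With 8 arrays the terms were -0.46 and -2.04 for Ms4a6c and -1.61 and 1.07 for Ms4a6b, none passed by limma (0% of all probe sets), and 1 had an unadjusted p under 0.05, where 1.51% of all did.

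Averaged over both treatments, 3 of the 14 probe sets were called, all higher in knockout cells, where 2.36% of all probe sets were called, and 8 had an unadjusted p under 0.05, as did 14.2% of all. Ms4a6c rose by 0.27 (SE 0.035, limma adjusted p = 0.00320) and 0.57 (SE 0.072, adjusted p = 0.00278), and Ms4a6b 1418826_at rose by 0.17 (SE 0.033, adjusted p = 0.0311). The Ms4a6b call was lost in 10 of 15 alternatives. The other Ms4a6b probe set, 1439956_at, had an average difference of opposite sign, -0.024 on 7 arrays and -0.36 on 8. In the 7-array averages a single array stands for untreated control cells. With 8 arrays the average differences were 0.35 and 1.26 for Ms4a6c and 0.88 for Ms4a6b 1418826_at, and none of the 14 was called, against 0.0133% of all probe sets, and 2 had an unadjusted p under 0.05, against 3.18%.

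The members sit among 21 Ms4a genes of the gene table, all on chromosome 19, 17 of which have a named probe set. In the order of genes Ms4a6c and Ms4a6b are parted by BE692007 and Gm8369. Gm8369 fell by 1.01 log2 units with hormone in knockout cells (limma adjusted p = 0.00137, or 0.195 with 8 arrays). It read 4.19 and 4.20 with hormone against 5.14 and 5.27 without in knockout cells, and its difference in control cells was -0.27 (adjusted p = 0.492). Ms4a4b, next to Ms4a6c on the other side, was described above. Genes inside the cluster that are not of the family were added as a list after the values were seen, and 3 of 11 were measured.

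Of the other Ms4a genes, 10 of 14 were measured. In each genotype 1 of these 10 fell with hormone and none rose, with medians of -0.11 in knockout cells and -0.040 in control cells. That gene was Ms4a1, which encodes CD20 and fell by 1.96 log2 units in knockout cells (limma adjusted p = 4.12e-06) and fell by 1.65 in control cells (adjusted p = 7.92e-05). It is 1 of the 8 measured B cell markers, of which 6 fell in knockout cells and 7 in control cells on 7 arrays, and none in either genotype on 8 arrays. The Ms4a1 difference in control cells was -1.08 on 8 arrays. The other 9 read at most 5.56 on any array. None of the 10 was called between genotypes with or without hormone, on 7 or 8 arrays. The shares of all probe sets called in these contrasts, given above, were small, so this says little about these genes. On 8 arrays none of all 18193 genes was called in either contrast. Over all 18193 genes, by their brightest probe sets, 946 rose and 1323 fell with hormone in knockout cells, and 789 rose and 950 fell in control cells. With 8 arrays 17 genes rose and 1 fell in knockout cells, and 18 rose and 3 fell in control cells. None of the other Ms4a genes, flanking genes, partners, interferon-stimulated genes or 4-span genes was then called in either genotype by limma, while 1 other Ms4a gene in each genotype, 2 flanking genes in knockout cells and 1 in control cells, and 3 partners and 2 interferon-stimulated genes in each genotype had an unadjusted p under 0.05. Over all probe sets that share was 3.65% in knockout cells and 8.18% in control cells.

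Of the 20 measured genes that flank the cluster, 10 on each side, none rose and 2 fell with hormone in each genotype. Slc15a3, a peptide transporter of the endosome, fell by 0.42 log2 units in knockout cells (limma adjusted p = 4.59e-06) and fell by 0.38 in control cells (adjusted p = 5.40e-05). Cd5, a surface protein of T cells, fell by 1.07 in knockout cells (adjusted p = 0.00643) and fell by 0.92 in control cells (adjusted p = 0.0472). In control cells the difference on 8 arrays was 0.077 for Slc15a3, of opposite sign, and -0.29 for Cd5. The median of the flanking genes was -0.050 in knockout cells and -0.028 in control cells. None of the 20 was called between genotypes, where few of all genes were, so this says little about them.

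**Figure D4:**
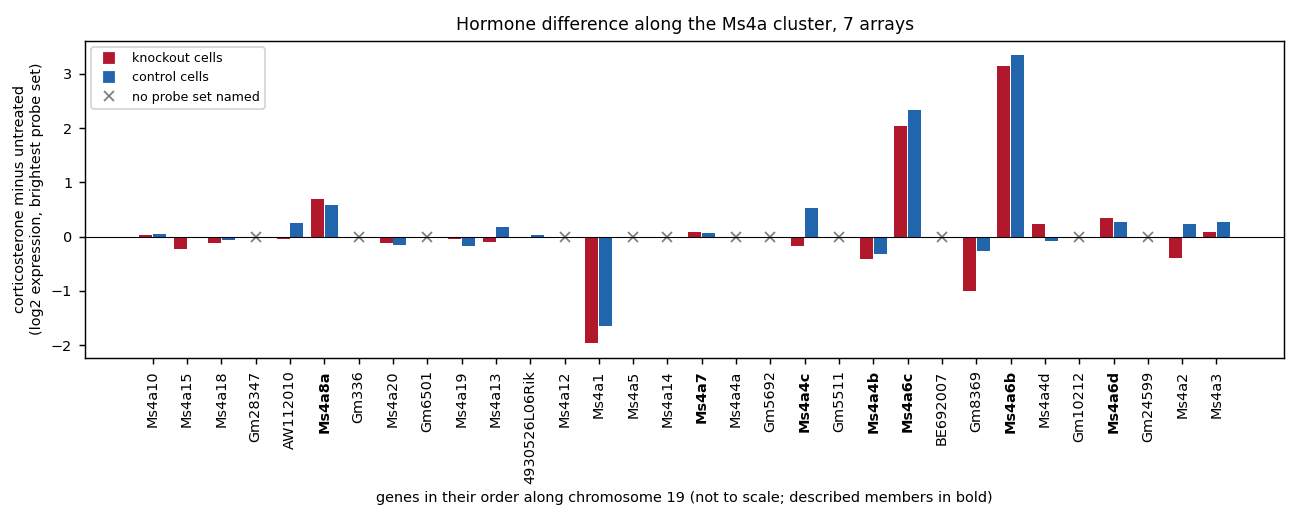
Difference in log2 expression between corticosterone and untreated cells on 7 arrays for the genes of the Ms4a cluster in their order along chromosome 19, by the brightest probe set, in knockout cells and in control cells. Ms4a6c and Ms4a6b stand at 2.04 to 3.35, Ms4a1 at -1.96 and -1.65, and crosses mark genes with no named probe set.

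Genes reported as partners of Ms4a proteins moved in both directions. Of 10 measured, 2 rose and 2 fell with hormone in knockout cells, and 2 rose and 1 fell in control cells, with a median of -0.033 in knockout cells and -0.036 in control cells. Vsig4, the partner of Ms4a6d, rose by 1.31 log2 units in knockout cells (limma adjusted p = 1.31e-07) and by 1.16 in control cells (adjusted p = 1.71e-06). Fcer1a, which joins Ms4a2 in the IgE receptor, rose by 1.67 in knockout cells (adjusted p = 3.32e-05) and by 1.49 in control cells (adjusted p = 0.000388), while Ms4a2 itself was not called. Clec7a, which encodes the fungal receptor dectin-1, reported to bind Ms4a4a, fell by 0.52 in knockout cells (adjusted p = 6.46e-06) and fell by 0.66 in control cells (adjusted p = 8.04e-06). Tnfrsf18, the partner of Ms4a4b in T cells, fell by 1.21 in knockout cells (adjusted p = 0.00351) and had a difference of -0.76 in control cells that missed the threshold (adjusted p = 0.110). Between genotypes without hormone Clec7a fell by 0.22 on 7 arrays (adjusted p = 0.0355), the only partner called there, but with 8 arrays its difference was 0.038 (adjusted p = 0.902). No partner was called between genotypes with hormone on 7 arrays, where few of all genes were. With 8 arrays the adjusted p of Vsig4 was 0.516 in knockout cells and 0.257 in control cells, and the hormone difference in control cells was 2.79 for Fcer1a and -0.41 for Clec7a.

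Interferon-stimulated genes, set beside Ms4a4c, were measured for 9 of 12. With hormone 1 rose and 3 fell in knockout cells, and 1 rose and 1 fell in control cells. Irf7, a transcription factor of the interferon response, rose by 0.42 log2 units in knockout cells (limma adjusted p = 0.00812) and by 0.57 in control cells (adjusted p = 0.00566). Rsad2, an antiviral enzyme, fell by 0.38 in knockout cells (adjusted p = 0.00153) and fell by 0.39 in control cells (adjusted p = 0.00592). With 8 arrays the control difference was 1.18 for Irf7 and -0.17 for Rsad2. Tetraspanins and other 4-span proteins were measured for 11 of 12, of which 2 fell with hormone in knockout cells, and 2 rose and 2 fell in control cells. Cd9 and Tspan4 fell in both genotypes on 7 arrays. The difference of Cd9 was -0.22 in each, and that of Tspan4 was -0.19 in knockout cells and -0.23 in control cells. On 8 arrays the control differences turned to 0.44 for Cd9 and 0.037 for Tspan4.

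The genes whose pattern over the 7 arrays was most like Ms4a6b were ranked by Pearson's r among 1063 genes with a range above 1 log2 unit. They were Fkbp5, a chaperone of steroid receptors, with r = 0.9998, then Ttc39c with 0.9996, Tlr7, a receptor for single-stranded RNA, with 0.9995, the clock gene Per1 with 0.9992 and the interleukin-6 receptor gene Il6ra with 0.9983. On 8 arrays r was 0.877 for Fkbp5, 0.973 for Ttc39c, 0.999 for Tlr7, 0.996 for Per1 and 0.986 for Il6ra. For Ms4a6c the list was Jag1, a Notch ligand, Ddit4, an inhibitor of mTOR signalling, Tlr7, Ttc39c and Fkbp5, with r of 0.9977 to 0.9980 on 7 arrays and 0.640 to 0.984 on 8. The arrays fall into hormone and untreated sets, so any gene that separates them steadily scores high: 37 genes exceeded 0.99 with Ms4a6b and 22 with Ms4a6c.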

How the data were processed

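RNA was measured on 8 Affymetrix mouse arrays after biotin labelling. The deposited values are log2 expression, 1 per probe set and array, made by the authors with RMA in R 2.7, per the submitters' processing notes. RMA makes the arrays' distributions alike and gives no detection call, so values are relative and dim probe sets are compressed towards background. The sources used here give no genome build or scan date.

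The array has 45101 probe sets. The platform annotation names 1 gene for 34945, several for 932 and none for 9160, and 64 are controls. For 34741 the symbol was updated through the RefSeq table of GRCm38.p6, and 204 kept an older one. limma 3.58.1 in R 4.3.3 fitted 1 coefficient per group to the 45037 other probe sets, with a variance trend and Benjamini-Hochberg adjustment over all of them, called under 0.05. The main fit left out control untreated replicate 2 (7 arrays, 3 residual degrees of freedom, median SE 0.123 for knockout against control with hormone), beside 8 arrays (4 degrees of freedom, median SE 0.207). Precision is limited by the number of arrays. The fit was tested on simulated data.

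Named are all member probe sets, up to 4 genes per list with the smallest p, and the 5 genes most like Ms4a6b and Ms4a6c. Genes in lists stand by their brightest probe set. The members and lists were chosen with earlier results of these data known. Promoters were aligned with Biopython 1.88. Deviations of same-numbered replicates correlated at -0.23 to 0.32, so the numbers were not taken to pair samples. Protein identity was not analysed here.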

Additional observations from a re-analysis of the deposited data

Results flagged for a closer look

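Ms4a4c 1420671_x_at had hormone differences of opposite sign in the genotypes. Every knockout array with corticosterone, at 6.74 and 6.72, was below every untreated knockout array, at 6.92 and 6.88, and every control array with corticosterone, at 6.93 and 6.74, was above every untreated control array, at 6.31 and 5.54. The interaction term was -0.69 on 7 arrays (SE 0.177, 95% confidence interval -1.09 to -0.30) and did not pass the test (limma adjusted p = 0.862, unadjusted p = 0.00318). With 8 arrays it was -1.08 (adjusted p = 0.752), and the control difference was 0.91 against 0.53 on 7 arrays. The other probe set of the gene, 1450291_s_at, differed by 0.16 in knockout cells and 0.24 in control cells, with a term of -0.079.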

How the results depend on the processing

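The count of Ms4a probe sets called between genotypes without hormone, 2 on 7 arrays, was 0 on 8 arrays with and without array weights, 0 with no variance trend, 0 with a replicate block on 8 arrays and 0 with only the arrays compared. The average effect, with 3 called, gave 0 under the same settings apart from the last, which was not run for it. Leaving out each array in turn gave 2 to 13 calls without hormone, 2 to 11 for the average effect, 0 to 11 for the interaction and 0 throughout with hormone. On 8 arrays none of the 45037 probe sets passed without hormone, also with array weights or with the replicate block. For the average effect 6 of them passed on 8 arrays, 15 with array weights and 0 with the block. When arrays were left out, the highest counts came without control untreated replicate 1, where the outlying replicate 2 alone stands for the group. Most of all 45037 probe sets were then called without hormone, for the average effect and for the interaction. Leaving out any other array gave lower counts of members.

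In that exchange 4 probe sets were called with the opposite sign. The same 4 changed sign with all 8 arrays in each contrast given here, with no call. Without hormone, leaving out each array gave -0.15 to 0.23 for Ms4a6d 1419599_s_at, -0.19 to 0.51 for 1419598_at, -0.080 to 0.83 for Ms4a7 1424754_at and -0.15 to 0.27 for Ms4a8a. The interaction gave -0.26 to 0.13, -0.53 to 0.17, -0.87 to 0.035 and -0.28 to 0.14 for the same probe sets, and the average effect -0.096 to 0.097, -0.10 to 0.24, -0.063 to 0.39 and -0.081 to 0.13. The Ms4a6c calls without hormone were kept in 11 of 16 alternatives for 1450234_at and 10 of 15 for 1457725_at. Each alternative that kept these calls had a single untreated control array, and they were lost in every alternative with both. Without a variance trend their adjusted p was 0.237 and 0.0963. The hormone difference of Ms4a6b 1418826_at was 4.76 in control cells with 8 arrays, with array weights and with the replicate block on them, and that of Ms4a6c 1450234_at was 2.50. Leaving out each array gave 3.33 to 6.17 and 2.33 to 2.68 in control cells, and 3.12 to 3.18 and 1.99 to 2.09 in knockout cells. With the replicate block on 7 arrays 0 were called with hormone, 2 without, 0 for the interaction and 2 for the average effect, where Ms4a6b was not called (adjusted p = 0.0713). Background correction could not be varied on RMA values.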

Other observations

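Tmem176a and Tmem176b, neighbouring genes for 4-span proteins that are related in build to the Ms4a family, rose in knockout cells. Tmem176b read 9.85 and 9.87 in knockout cells with corticosterone against 8.84 and 8.72 in control cells with it, a rise of 1.08 (limma adjusted p = 2.05e-05). Untreated it read 9.75 and 9.71 in knockout cells against 8.20 and 9.89 in control cells, a rise of 1.53 on 7 arrays (adjusted p = 1.12e-05). Tmem176a rose by 0.98 with hormone (adjusted p = 0.000213) and by 1.46 without (adjusted p = 7.42e-05). No other of the 11 measured 4-span genes was called in either contrast, where few of all genes were. With all 8 arrays none of the 18193 genes was called in either contrast. The array that stands apart read 10.40 for Tmem176a, above every other array, and with it neither gene was called. The untreated differences were then 0.69 for Tmem176b and 0.019 for Tmem176a (adjusted p = 0.516 and 0.991), and with hormone the adjusted p was 1 for both.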
